A study of Mus musculus with 2 samples.

Results

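The 7 genes Wt1, Tcf21, Gata6, Foxf1, Tbx15, Nr2f1 and Nr2f2 encode transcription factors whose levels are known to differ between fat depots or between the vessel types within them. They were taken by symbol and are 7 of the 32246 gene symbols in the deposited single-cell matrices. All 7 were found. They were followed through the progenitors, mesothelial-like cells and endothelial cells of 2 mouse libraries.

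Both libraries were made from CD45-negative cells of the stromal vascular fraction, which is what remains of fat once the adipocytes have been removed. The fat was labelled subcutaneous white adipose tissue, and the cells were sorted by flow cytometry and captured with a droplet 3′ kit that counts unique molecular identifiers (UMIs). One library is labelled WT and the other Paqr4 transgenic. Cells from 3 mice were pooled, and the sources used here do not say whether that is per genotype or in all. The labels give no age, sex or strain, and they name neither the promoter of the Paqr4 transgene nor the cells that carry it. Each genotype has a single library and no replicate, so no difference between genotypes was tested, and every interval below is a 95% interval for counting error only. Such intervals leave out how UMIs vary between cells and between mice, and they are too narrow where a few cells hold many UMIs.

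Fat depots keep a positional identity from development. Wt1, a zinc finger factor of the mesothelium that lines the body cavities, and the basic helix-loop-helix factor Tcf21 are commonly described as marks of visceral fat precursors. Gata6, a GATA zinc finger factor, and Foxf1, a forkhead factor of gut and body cavity mesenchyme, are also used as visceral marks, whereas the T-box factor Tbx15 is commonly used as a mark of subcutaneous and brown precursors. Nr2f1 and Nr2f2 are the orphan nuclear receptors COUP-TFI and COUP-TFII. Nr2f2 is known for venous and lymphatic endothelial identity and is also found in many mesenchymal cells.

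The WT library held 44145257 UMIs and the transgenic library 43084906, and cells with at least 1000 UMIs, at least 500 genes and at most 10% mitochondrial UMIs were kept. Clustering gave 1125 WT and 1351 transgenic progenitors in 6 clusters, all 8 of whose general progenitor markers (Pdgfra, Dcn, Col1a1 and others) were on. It also gave 95 and 79 blood endothelial-like, 6 and 6 lymphatic endothelial-like, 11 and 10 mesothelial-like and 11 and 6 pericyte- or smooth muscle-like cells. The mesothelial-like cells carried Msln at 318 and 354 UMIs per 1000000 UMIs of the class (UPM) and Upk3b at 719 and 890 UPM. No cell barcode was shared between the libraries. The libraries differed in sex as well as in genotype: Xist had 959 and 0.153 UPM in WT and transgenic progenitors, and the Y-linked Uty 0 and 94.04 UPM. Genotype and sex therefore cannot be told apart in any comparison between the libraries.

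Genes lie as follows in GRCm38 (GENCODE M21), the mouse build that is also called mm10. Wt1 (ENSMUSG00000016458) is on the plus strand at chr2:105126529-105173616, and Tcf21 (ENSMUSG00000045680) on the minus strand at chr10:22817281-22820174. Foxf1 (ENSMUSG00000042812) is on the plus strand at chr8:121084386-121088144, and Tbx15 (ENSMUSG00000027868) on the plus strand at chr3:99240381-99354259. Nr2f1 (ENSMUSG00000069171) is on the minus strand at chr13:78188973-78199757, and Nr2f2 (ENSMUSG00000030551) on the minus strand at chr7:70351944-70366735. Gata6 (ENSMUSG00000005836) is given by name only. Genes on the opposite strand overlap 5 of the 7 and were counted as features of their own, and the sources used here do not state whether counting used strand. In progenitors these partners were at 2.89 and 2.48 UPM for Tcf21 (Gm10824, over 2894 bases), 20.5 and 23.3 UPM for Gata6 (1010001N08Rik), 5.04 and 6.88 UPM for Nr2f1 (A830082K12Rik, over 1741 bases) and 11.8 and 10.51 UPM for Nr2f2 (B130024G19Rik, over 1826 bases). Gm43120, which overlaps Tbx15, had 0 and 0.0382 UPM. Without strand, reads in the overlaps cannot be told apart. For Nr2f1 the partner was as abundant as the gene itself.

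RefSeq promoter windows of 3 of the 7 genes were at hand. Shown here, 5′ to 3′, are the bases just before the start of Tcf21 and Nr2f2, the members with a window wholly or partly outside the annotated gene. The first was almost absent from blood endothelial-like cells and the second present in them. The Tcf21 run is chr10:22820175-22820393, minus strand, and the Nr2f2 run chr7:70366747-70366996, minus strand, in GRCm38.p6. Capitals mark the single match to any of 6 motifs searched on both strands.
Tcf21: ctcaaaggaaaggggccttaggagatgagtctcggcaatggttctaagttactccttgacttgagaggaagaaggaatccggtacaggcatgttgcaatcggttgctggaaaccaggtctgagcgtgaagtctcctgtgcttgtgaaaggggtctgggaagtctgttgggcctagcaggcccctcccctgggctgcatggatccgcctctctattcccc
Nr2f2: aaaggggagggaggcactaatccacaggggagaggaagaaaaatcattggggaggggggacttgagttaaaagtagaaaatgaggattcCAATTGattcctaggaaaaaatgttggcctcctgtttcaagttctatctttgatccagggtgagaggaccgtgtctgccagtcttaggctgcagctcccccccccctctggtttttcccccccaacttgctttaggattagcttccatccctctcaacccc

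The motifs were GATAA for GATA factors, CANNTG (the E-box of basic helix-loop-helix factors), AGGTCA for COUP-TF half-sites, GCGTGGG for Wt1, GTAAACA for forkhead and GGTGTG for T-box factors, and none overlapped another here. The Nr2f2 window held 1 E-box, CAATTG, whose first base lies 161 bases before the start; 66.2% of 32817 RefSeq windows of the same 250 bases held an E-box. Of the Tcf21 stretch, which is 219 bases long, none of the 6 patterns was among the letters. Over the same 219 bases of all windows, 62.0% held an E-box, 20.5% GATAA, 14.6% GGTGTG, 12.5% AGGTCA, 3.73% GCGTGGG and 2.80% GTAAACA. These are matches of letters and not measured sites.

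Wt1 was abundant in progenitors. The WT sum held 12780 Wt1 UMIs, a level of 499 UPM (exact Poisson interval 491 to 508), and the transgenic sum 9965, or 381 UPM (373 to 388). Most progenitors had at least 1 Wt1 UMI: 79.7% in WT (Clopper-Pearson interval 77.3 to 82.0) and 75.0% in the transgenic library (72.6 to 77.3), where the median cell had 22600 and 19327 UMIs. With each cell thinned to 5000 UMIs, which left out 25 and 47 shallower cells, the shares were 62.3% (59.3 to 65.1) and 56.2% (53.5 to 58.9). Levels differed widely between cells: 1 WT cell held 462 Wt1 UMIs, and 122 of the 1125 WT progenitors and 131 of the 1351 transgenic ones held 50% of them.

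Tcf21 reached 133 UPM (129 to 138) in WT progenitors, against 117 UPM (113 to 121) in the transgenic library. It had a UMI in 73.1% and 62.3% of these cells, and in 34.5% (31.7 to 37.4) and 31.7% (29.2 to 34.3) after thinning to 5000 UMIs. For Gata6 the levels were 51.6 UPM (48.8 to 54.4) and 57.5 UPM (54.6 to 60.4), with a UMI in 51.7% and 51.6% of them and in 22.1% and 23.5% after thinning. Foxf1 was scarcer, at 14.2 UPM (12.8 to 15.7) and 12.3 UPM (10.997 to 13.7), with a UMI in 22.8% and 18.9% of progenitors and 7.09% and 5.75% after thinning. The 4 factors used as visceral marks were thus all detected in progenitors of both libraries, and above their level in blood endothelial-like cells except for Foxf1.

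Tbx15 was near the limit of detection. Its 28 UMIs over all WT progenitors give 1.09 UPM (0.727 to 1.58), and its 58 transgenic UMIs 2.22 UPM (1.68 to 2.87). These lay in 19 of 1125 and 34 of 1351 cells, and after thinning a UMI remained in 0.636% (0.256 to 1.31) and 0.767% (0.368 to 1.41) of progenitors. Blood endothelial-like cells held 0 and 3 Tbx15 UMIs, the latter in 1 cell. Barcodes with 50 or fewer UMIs, which sample RNA free in the droplets, held Tbx15 at 0.301 UPM (1 UMI) in the WT library, against 11.1 UPM (6.97 to 16.8, 22 UMIs) in the transgenic one. In the transgenic library the free RNA thus held more Tbx15 per UMI than the progenitors did. In the WT library the free RNA level was under that of the progenitors, with overlapping intervals. Of the progenitor Tbx15 UMIs, 5 cells held 42.9% in WT and 31.0% in transgenic. The part of free RNA in these shares was not tested.

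Nr2f2 levels were 93.4 UPM (89.7 to 97.3) in the WT progenitors and 109 UPM (105 to 113) in the transgenic, with a UMI in 73.2% and 71.5% of cells and in 34.1% and 37.9% after thinning. Its relative Nr2f1 was low, at 5.27 UPM (4.42 to 6.24) and 4.89 UPM (4.08 to 5.82), with a UMI in 8.80% and 7.11% of progenitors. In free RNA, Wt1 stood at 187 and 192 UPM, Tcf21 at 99.0 and 94.5 UPM, Gata6 at 23.2 and 24.3 UPM, Foxf1 at 15.0 and 13.1 UPM and Nr2f2 at 43.6 and 41.4 UPM. Haemoglobin took 30.9% and 27.8% of free RNA. With haemoglobin left out of both totals, an alternative added after the data were seen, Wt1 had 270.4 and 265 UPM in free RNA, Gata6 33.5 and 33.6 UPM and Nr2f2 63.1 and 57.4 UPM, each still under its progenitor level in both libraries. Tcf21 then had 143 UPM (128 to 160) and 131 UPM (113 to 151) in free RNA, intervals that overlap those of the progenitors, and Foxf1 21.8 UPM (16.2 to 28.7) and 18.2 UPM (11.9 to 26.6), at or above them.

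**Figure D1:**
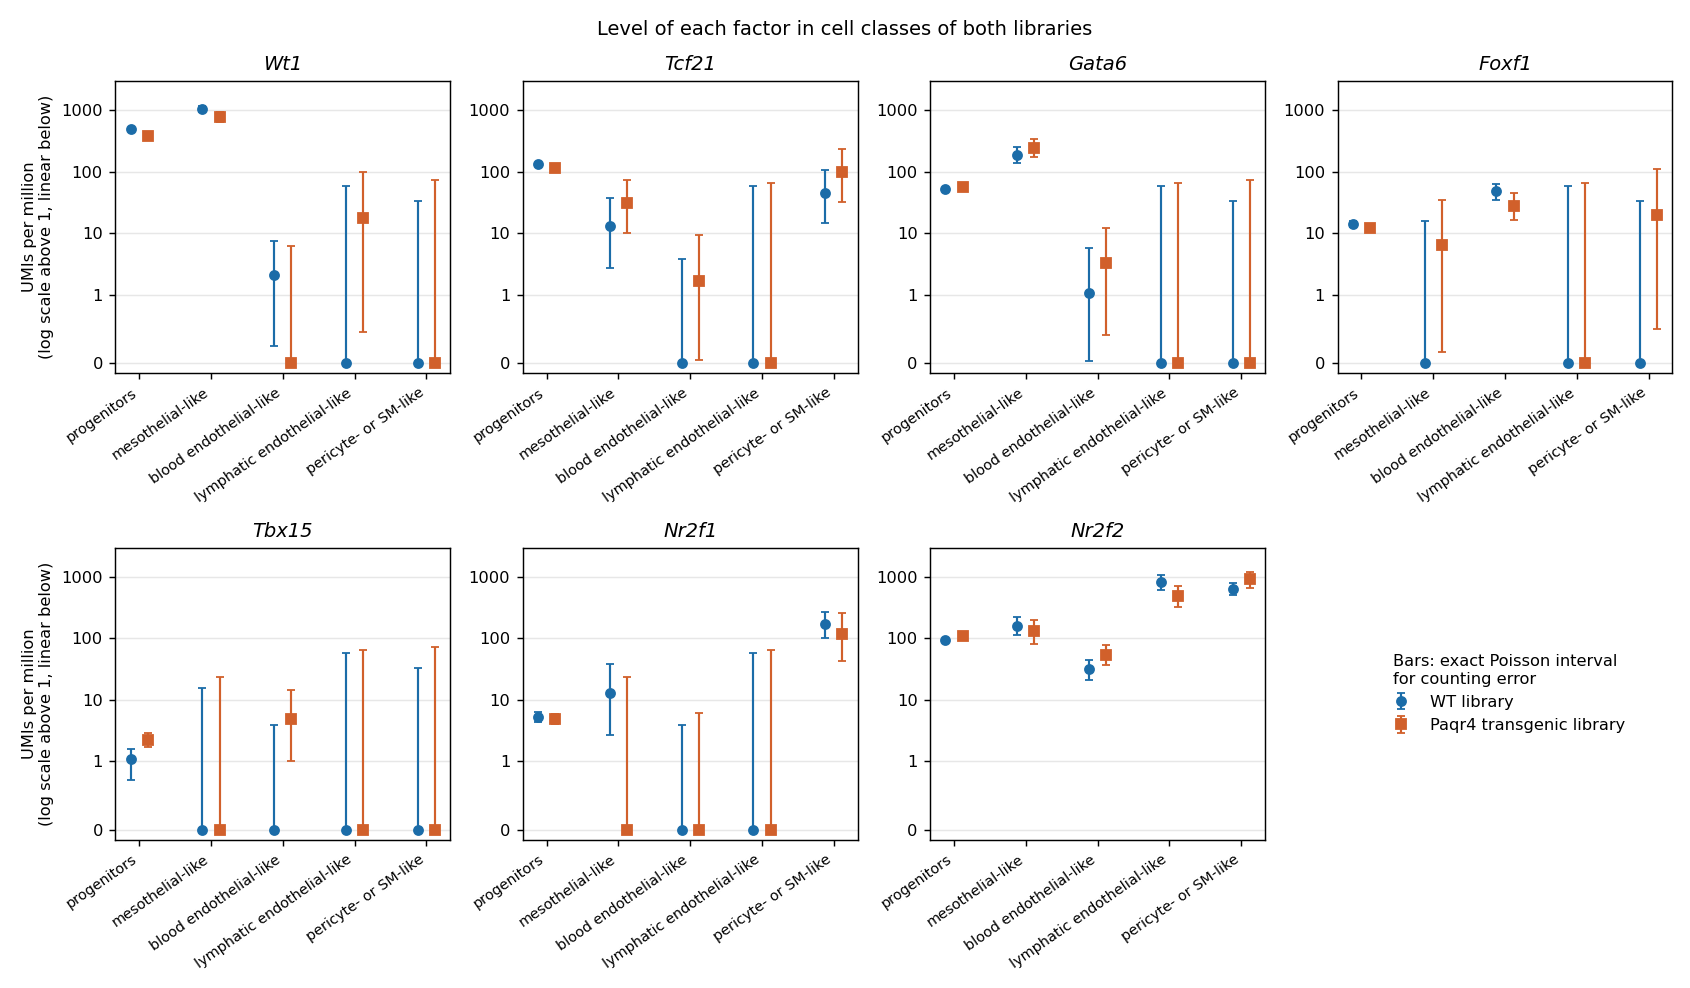
Level of each of the 7 factors (vertical axis, UPM, logarithmic above 1 and linear below) in 5 cell classes of the WT library (blue circles) and the Paqr4 transgenic library (orange squares), with exact Poisson intervals. Wt1 is highest in mesothelial-like cells and at or near 0 in vascular classes, and Nr2f2 is highest in lymphatic endothelial-like and pericyte- or smooth muscle-like cells.

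The labelled depot was then set against genes commonly used to tell depots apart. Of 18 genes listed as subcutaneous, 6 reached 10 UPM in progenitors of either library: Prrx1 (228 and 204 UPM), Twist2 (37.7 and 41.7 UPM), Hoxc8 (20.7 and 29.1 UPM), Twist1 (20.5 and 15.4 UPM), Lmx1a (18.3 and 14.7 UPM) and Hoxa5 (14.9 and 14.2 UPM). Another 10 stood under 1 UPM in both. These 10 were the homeobox genes Shox2, En1, Irx1, Irx2, Irx3, Irx5, Six2 and Emx2, the T-box gene Tbx18 and the zinc finger gene Zic1; En1, for instance, was at 0.0781 and 0.0382 UPM and Zic1 at 0 in both. Tbx15 and these 10 were thus at or near 0, while the 6 named before them were not.

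Of 18 genes listed as visceral, 5 reached 10 UPM in progenitors. Sulf1, an extracellular sulfatase, stood at 1009 and 858 UPM, Aldh1a2, which makes retinoic acid, at 60.9 and 136 UPM, and Rspo1, a Wnt agonist, at 32.3 and 25.3 UPM. Cd200 followed at 22.8 and 13.1 UPM and Hoxa3 at 17.9 and 20.8 UPM. Another 8 stood under 1 UPM in both, namely the mesothelial genes Bnc1, Msln, Upk3b, Upk1b, Lrrn4 and Gpm6a and the GATA genes Gata4 and Gata5. The lists thus gave no single direction. Wt1, Tcf21 and Gata6 were abundant and Tbx15, Shox2 and En1 at or near 0, which goes against the subcutaneous label. Prrx1 and Hoxc8 were present, and 8 of the 18 visceral genes stood under 1 UPM. The mesothelial genes among these 8 were each at 68.8 UPM or more in mesothelial-like cells of both libraries. Prrx1 also stood at 380 and 714 UPM in pericyte- or smooth muscle-like cells. The depot is given only as labelled. An unnamed cluster of 25 WT and 5 transgenic cells was led by the digestive enzyme genes Clps, Ctrb1, Cela3b and Prss2, with Clps at 126151 and 91901 UPM, and these genes were also found in the progenitor sums, Clps at 20.1 and 3.94 UPM. In those cells Wt1 had 1 and 0 UMIs.

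**Figure D2:**
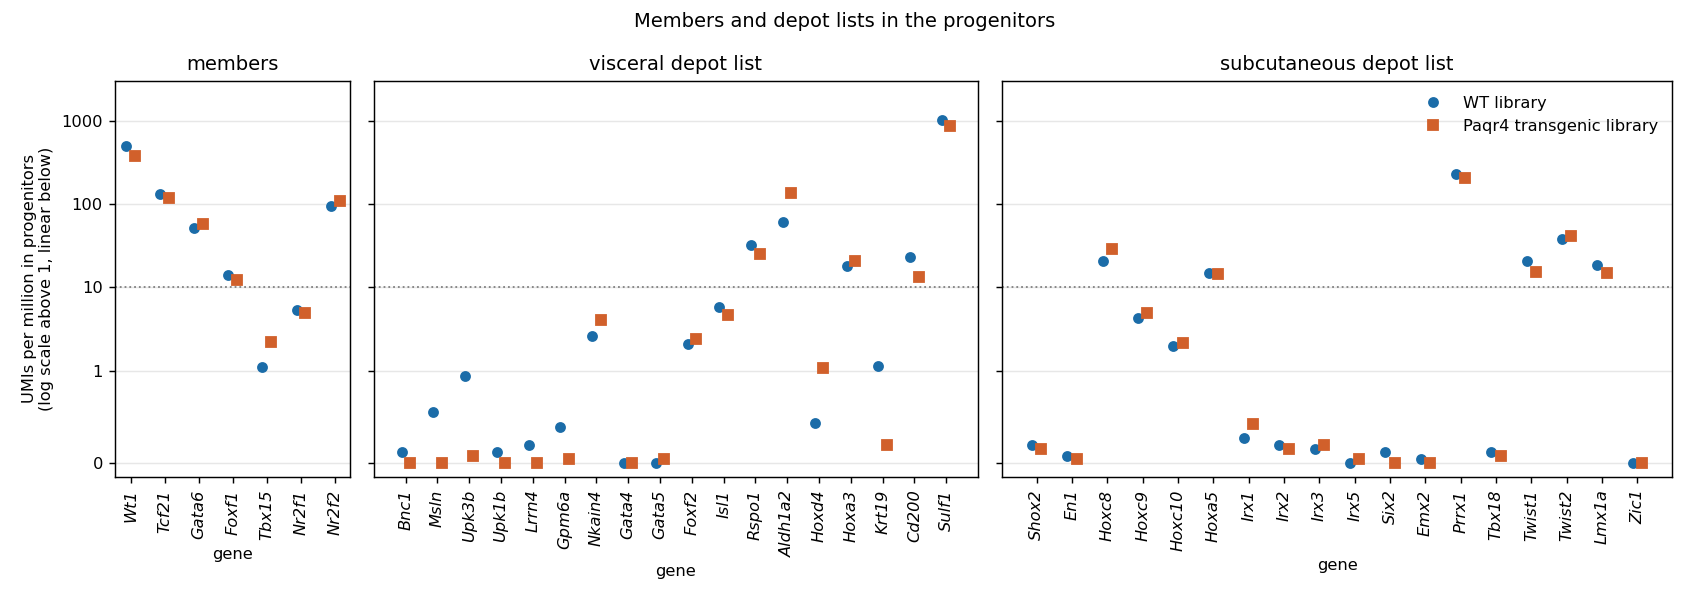
Level in progenitors (vertical axis, UPM, logarithmic above 1 and linear below) of the 7 members, the 18 genes listed as visceral and the 18 listed as subcutaneous, in list order, for the WT (blue circles) and Paqr4 transgenic (orange squares) libraries. The dotted line marks 10 UPM; 10 of the 18 subcutaneous genes lie under 1 UPM in both libraries.

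Progenitors with Wt1 carried few other mesothelial transcripts. Of the 12 mesothelial markers, 3 or more had a UMI in 1 of the 897 WT progenitors with Wt1 and in 0 of the 1013 transgenic ones, against 10 of 11 and 10 of 10 mesothelial-like cells. The markers summed to 5.83 and 4.20 UPM in progenitors with a Wt1 UMI, to 10.6 and 5.70 UPM in progenitors without one, and to 4307 and 6376 UPM in mesothelial-like cells. Msln was at 0.467 and 0 UPM in the Wt1-positive progenitors. Markers of gonadal stroma, another Wt1-expressing tissue, summed to between 0 and 20.4 UPM over 8 genes in each of the 6 progenitor clusters of each library.

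The mesothelial-like cells had more Wt1 and Gata6 and less Tcf21 than the progenitors. Wt1 stood at 1054 UPM (926 to 1195) in the 11 WT cells and 789 UPM (657 to 940) in the 10 transgenic ones, 2.11-fold and 2.07-fold the progenitor level (log2 1.08, from 0.89 to 1.26, and log2 1.05, from 0.78 to 1.31). Gata6 stood at 189 UPM (138 to 254) and 246 UPM (175 to 337), 3.67-fold and 4.28-fold (log2 1.88, from 1.41 to 2.31, and 2.10, from 1.60 to 2.56). Tcf21 had 3 and 5 UMIs in these cells, a log2 ratio to progenitors of −3.37 (−5.65 to −1.82) in WT and −1.89 (−3.51 to −0.66) in transgenic.

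In turn, 5 of the 8 progenitor markers were on in the mesothelial-like cells. Nr2f2, at 159 and 133 UPM, lay within 2-fold of progenitors in both, and Foxf1 had 0 and 1 UMIs. Among genes at 10 UPM or more in either class, 22.4% in WT and 27.2% in transgenic were 2-fold or more higher in mesothelial-like cells. Another 15.1% and 13.3% were 2-fold or more lower. Of the members, Wt1 and Gata6 were that much higher in both libraries and Tcf21 lower. Nr2f1 was also higher in WT, at 12.9 UPM or 2.45-fold (log2 1.29). That value rests on 3 UMIs, and its counting interval includes 0. The transgenic mesothelial-like cells held 0 Nr2f1 UMIs. A few mesothelial-like cells held most of the Wt1 UMIs: 5 cells held 87.3% and 80.8% of them. A gate of a UMI of both Msln and Upk3b, set without the clusters, gave 8 and 9 cells. Of the mesothelial-like cells, 6 and 8 had a UMI of both, so the gate also took in cells outside this cluster. By this gate the levels stayed within the counting intervals.

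Blood endothelial-like cells had almost no Wt1, Tcf21 or Gata6. Wt1 had 2 UMIs in 95 WT cells, 2.09 UPM (0.253 to 7.56), and 0 in 79 transgenic cells, 0 UPM (0 to 6.12). Tcf21 had 0 and 1 UMIs and Gata6 1 and 2. Against progenitors, Wt1 was 239-fold lower in WT (log2 −7.90, from −10.94 to −6.04) and at least 76.6-fold lower in transgenic. After thinning to 5000 UMIs, none of 77 WT and 63 transgenic endothelial cells held a Wt1 or Tcf21 UMI. With the called doublets kept, which added 1 and 4 cells, Wt1 was at 8.17 and 20.3 UPM in this class.

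Foxf1 and Nr2f2 were present in endothelial cells. Foxf1 reached 48.1 UPM (35.2 to 64.2) in WT endothelial cells, against 28.2 UPM (16.4 to 45.1) in transgenic ones, 3.39-fold (log2 1.76, from 1.29 to 2.21) and 2.29-fold (log2 1.196, from 0.40 to 1.90) the progenitor level, with a UMI in 30 of 95 and 11 of 79 cells. Nr2f2 stood at 31.4 UPM (21.2 to 44.8) and 54.7 UPM (37.7 to 76.8), 2.98-fold and 1.98-fold lower than in progenitors. Nr2f1 had 0 UMIs in both. Of the 5 members at 10 UPM or more, Foxf1 was thus 2-fold or more higher in both libraries, where 24.5% and 22.4% of all genes were, and 4 in WT and 3 in transgenic were lower, where 17.6% and 19.7% were. The member lower in WT only was Nr2f2. By marker gates, which gave 99 and 83 blood endothelial-like cells, Nr2f2 lay above the intervals given here in both libraries. Its fold below progenitors thus depended on how the cells were called.

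Genes listed as arterial were widely present in the blood endothelial-like class. Of those at 10 UPM or more in either class, 10 of 11 in WT and 9 of 10 in transgenic were 2-fold or more above progenitors. Of the venous genes 4 of 6 were so in each library, and of all genes 24.5% and 22.4%. Only 4 genes of each list reached 10 UPM in progenitors of either library. The others could enter only through the endothelial cells, where they then had to be higher. These counts therefore do not compare the arterial with the venous list. Among the venous genes, Nrp2 had 277 and 265 UMIs and Ephb4 111 and 61, whereas Vwf, Selp, Ackr1 and Lrg1 each had between 0 and 6. In this class 74 WT and 56 transgenic cells held a UMI of an arterial gene such as Dll4 or Sox17 and none of Vwf, Selp, Ackr1 and Lrg1. The reverse was found in 0 cells of either library. No venous group was thus at hand, and the place of Nr2f2 between arterial and venous cells was not tested.

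Lymphatic endothelial-like cells had the most Nr2f2 of the endothelial classes, at 832 UPM (624 to 1089) in 6 WT cells and 498 UPM (331 to 719) in 6 transgenic ones. All 12 cells held an Nr2f2 UMI. The level was 8.91-fold (log2 3.16, from 2.73 to 3.55) and 4.58-fold (log2 2.20, from 1.60 to 2.73) that of progenitors. In these small classes 44.1% and 44% of all genes tested were counted as 2-fold or more higher. Those shares take in genes with 0 UMIs there, since a 0 was set to 3 UMIs, or 47.1 and 53.3 UPM. Such genes counted as higher where their progenitor level was low. Prox1, the master factor of lymphatic identity, stood at 1131 and 1209 UPM there. The pericyte- or smooth muscle-like cells were the class with the most Nr2f1, at 172 UPM (103 to 268) and 119 UPM (43.7 to 259), the latter 6 UMIs in 1 cell, and also carried Nr2f2 at 642 and 912 UPM. These were 11 and 6 cells, and 35.3% and 46% of all genes were counted as 2-fold or more higher in them than in progenitors. Here too a 0 was set to 3 UMIs, or 27.1 and 59.5 UPM, so genes with 0 UMIs are among them. Wt1 and Gata6 had 0 UMIs there in both libraries, whereas Tcf21 had 5 in each.

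Gata6 was also found outside these classes. In an unnamed cluster of 9 WT and 6 transgenic cells led by Spp1, Pkhd1 and Dcdc2a, with Krt8 at 905 and 733 UPM and Epcam at 684 and 608 UPM, Gata6 stood at 203 and 318 UPM. Wt1 had 1 and 0 UMIs there. Tbx15 reached 52.8 UPM in Schwann-like cells of the WT library, but from 4 UMIs in a single cell of 6, and had 0 UMIs in the 3 Schwann-like cells of the transgenic library.

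Among the progenitor clusters, Wt1 and Tcf21 were both highest in cluster 3 and low in clusters 2, 4 and 8, while Gata6 was low in cluster 3. The clusters were made from the same cells, so what follows is a description with no test; none of the 7 members was among the 2000 variable genes used for clustering. Cluster 3, led by Adamts4, Il6 and Ccl7, had the highest Wt1, 866 UPM (845 to 887) in the WT library against 707 UPM (684 to 730). Clusters 6 (led by Piezo2, Itgbl1 and Tgfbi) and 1 (led by the heat shock genes Dnajb1, Hspa1b and Hsph1) followed with 471 and 553 UPM and with 467 and 395 UPM. The Dpp4-like cluster 4, led by Pi16 and Cd55, had 360 and 231 UPM, and cluster 2, led by C7 and by immunoglobulin transcripts, 143 and 160 UPM. Cluster 8, led by Tenm4 and Cxcl14, had 13.2 UPM (5.71 to 26.0) in 33 WT cells and 42.1 UPM (15.4 to 91.6) in 10 transgenic ones, the latter from 6 UMIs in 1 cell. The intervals of neighbours in this order overlapped only for clusters 1 and 6 in WT.

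By share of cells, clusters 3 and 6 were close for Wt1 and led in both libraries, with cluster 6 the higher in transgenic. After thinning to 5000 UMIs a Wt1 UMI was found in 84.7% and 78.4% of cluster 3 cells, 81.0% and 79.4% of cluster 6, 63.0% and 54.6% of cluster 1, 59.9% and 53.1% of cluster 4, 34.7% and 39.2% of cluster 2 and 9.09% and 11.1% of cluster 8. Tcf21 was highest in cluster 3, with 192 UPM (182 to 202) in the WT library, 240 UPM (227 to 254) in the other, followed by cluster 1 with 158 and 127 UPM. It was lower in cluster 6 (123 and 74.0 UPM), cluster 2 (81.6 and 55.5 UPM) and cluster 4 (80.4 and 64.0 UPM), and 61.1 and 28.1 UPM in cluster 8. In WT, the intervals of clusters 2, 4 and 8 overlapped, as did those of 1 and 6, and in transgenic those of 6 and 4, of 4 and 2 and of 2 and 8.

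Gata6 was lowest in cluster 3 among the larger clusters, at 34.1 UPM (30.1 to 38.5 in WT, 29.3 to 39.5 in transgenic) in both libraries, and highest in clusters 6 (86.0 and 83.1 UPM) and 2 (73.9 and 74.5 UPM). Clusters 4 and 1 lay between, at 62.1 and 54.6 UPM and at 44.4 and 55.2 UPM. Cluster 2 thus combined low Wt1, 3.93-fold and 2.83-fold below the other progenitors of its library, with Gata6 at 1.55-fold and 1.43-fold theirs. Cluster 3 combined Wt1 at 2.51-fold and 2.36-fold with Gata6 1.73-fold and 1.86-fold lower. For neither gene did the direction differ between the libraries in clusters 2 and 3.

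Nr2f2 was lowest in the Dpp4-like cluster 4, where WT cells had 55.2 UPM (49.7 to 61.2) and transgenic cells 65.3 UPM (58.0 to 73.2), against 107 and 118 UPM in the other progenitors. It was highest in cluster 8 in WT (180 UPM, 148 to 217) and in cluster 2 in transgenic (141 UPM, 132 to 150), where the interval of cluster 8 (126 UPM, 74.8 to 199.6) overlapped. Nr2f1 also peaked in WT cluster 8, at 29.7 UPM (17.6 to 47.0) from 18 UMIs, against 4.68 UPM in the other WT progenitors, whereas the 10 transgenic cells of that cluster held 1 UMI. In the remaining clusters Nr2f1 lay between 1.13 and 7.32 UPM. Foxf1 lay between 8.32 and 19.2 UPM in clusters 1, 2, 3, 4 and 6 of both libraries, and had 1 and 0 UMIs in cluster 8. Tbx15 was at or under 3.34 UPM in each progenitor cluster.

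**Figure D3:**
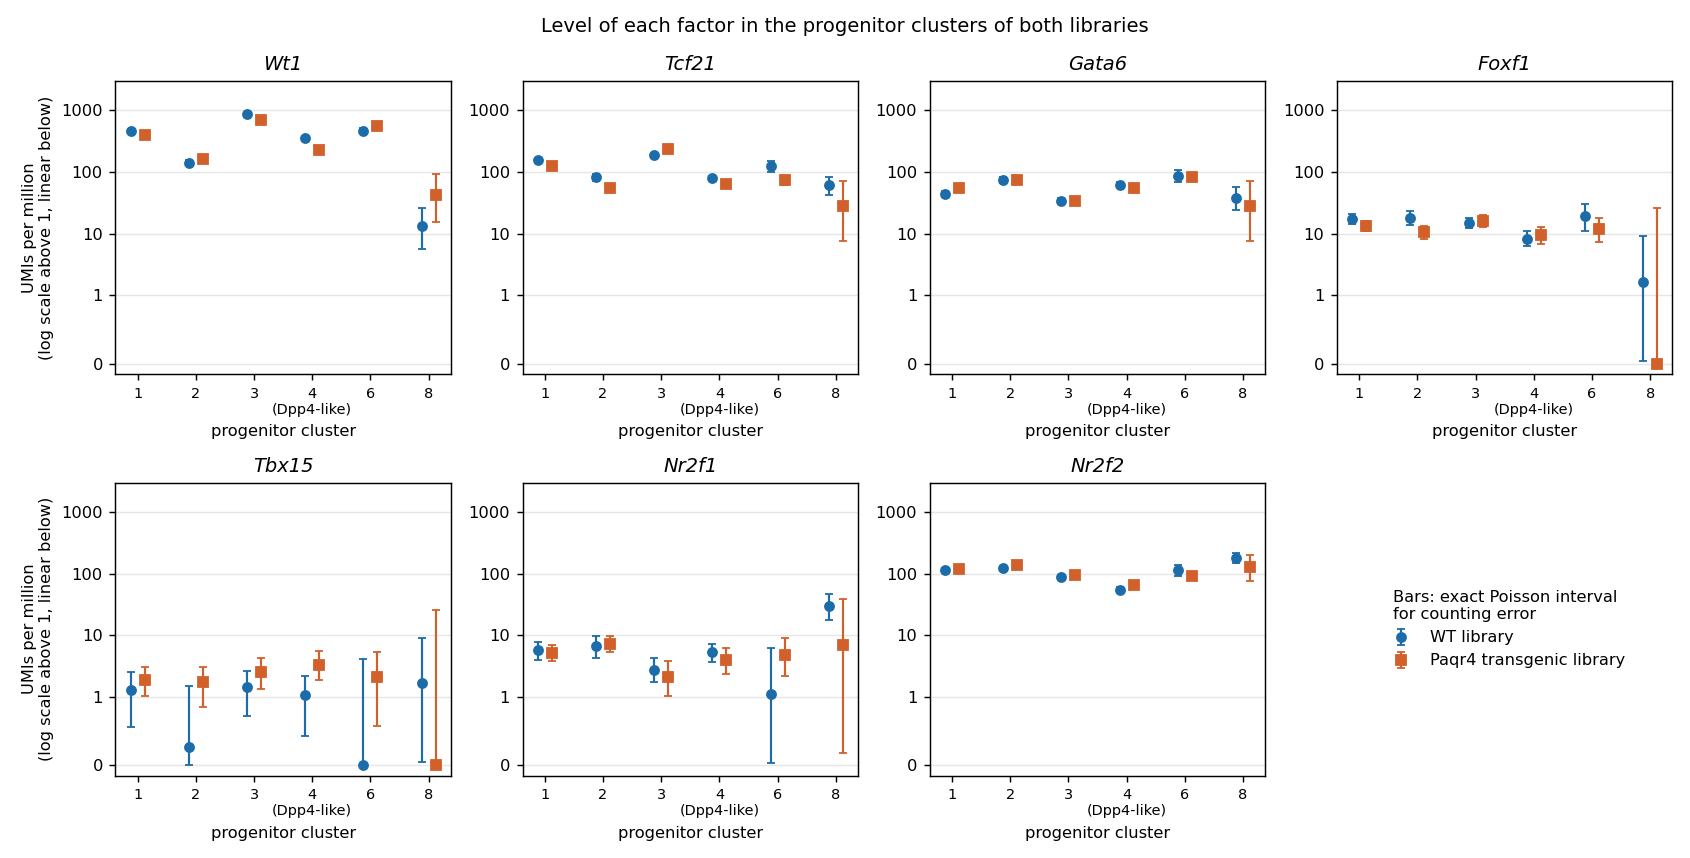
Level of each of the 7 factors (vertical axis, UPM, logarithmic above 1 and linear below) in the 6 progenitor clusters of the WT (blue circles) and Paqr4 transgenic (orange squares) libraries, with exact Poisson intervals. Wt1 and Tcf21 peak in cluster 3, where Gata6 is low, and Wt1 falls to 13.2 and 42.1 UPM in cluster 8.

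Between the libraries the differences in progenitors were small. Of the 5 members at 10 UPM or more, 0 differed by 2-fold or more, where 0.834% of the 8750 genes tested were higher by that much in the transgenic library and 0.789% lower. Wt1 was lower in the transgenic library, 0.763-fold the WT level (log2 −0.39, from −0.43 to −0.35), and Tcf21 0.876-fold (log2 −0.19, from −0.26 to −0.12). Gata6 was 1.11-fold the WT level (log2 0.16, from 0.05 to 0.26) and Nr2f2 1.16-fold (log2 0.22, from 0.14 to 0.30). Foxf1 (log2 −0.20, from −0.43 to 0.02) and Nr2f1 (log2 −0.11, from −0.47 to 0.25) did not differ beyond counting error. Tbx15 had a log2 ratio of 1.02 (0.35 to 1.73), from 28 and 58 UMIs, below the level at which a fold was counted. The median log2 ratio of all genes tested was 0.09.

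The libraries also differed in the make-up of the progenitors, whose part in these ratios was not tested. Cluster 3, the cluster with the most Wt1, held 303 of the 1125 WT progenitors but 238 of the 1351 transgenic ones, and cluster 2 held 208 and 381. With each of the 6 clusters given equal weight, the log2 ratio of Wt1 was −0.15, that of Gata6 turned to −0.04 and that of Nr2f2 to −0.07. These turns rest on cluster 8, whose 10 transgenic cells held 4 Gata6 and 18 Nr2f2 UMIs: with equal weights and without it, the ratios were −0.17 for Wt1, 0.0041 for Gata6 and 0.062 for Nr2f2. With cells thinned to 5000 UMIs, the Gata6 ratio was 0.03 (−0.18 to 0.25).

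Cluster by cluster, Wt1 did not move one way. It was lower in the transgenic library in cluster 4 (log2 −0.64, from −0.75 to −0.54), cluster 3 (−0.29, from −0.35 to −0.23) and cluster 1 (−0.24, from −0.32 to −0.17), and higher in cluster 6 (0.23, from 0.07 to 0.40) and cluster 2 (0.17, from 0.02 to 0.32). Tcf21 was higher in cluster 3 (0.32, from 0.21 to 0.43) and lower in clusters 1 (−0.32), 2 (−0.56), 4 (−0.33) and 6 (−0.74, from −1.11 to −0.36). Nr2f2 was between −0.30 and 0.24 and Gata6 between −0.19 and 0.31 in these 5 clusters. Foxf1 was lower in cluster 2 (−0.77, from −1.28 to −0.26), from 68 UMIs in each library. Its intervals in clusters 1, 3, 4 and 6 included 0. No member at 10 UPM or more differed by 2-fold in them, where 1.2%, 1.18%, 1.15%, 1.51% and 5.08% of genes were higher by that much in clusters 1, 2, 3, 4 and 6 and 1.01%, 1.97%, 1.31%, 1.71% and 4.65% lower. Each value compares 2 libraries, so the spread between mice is unknown, and the differences between clusters were not tested.

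**Figure D4:**
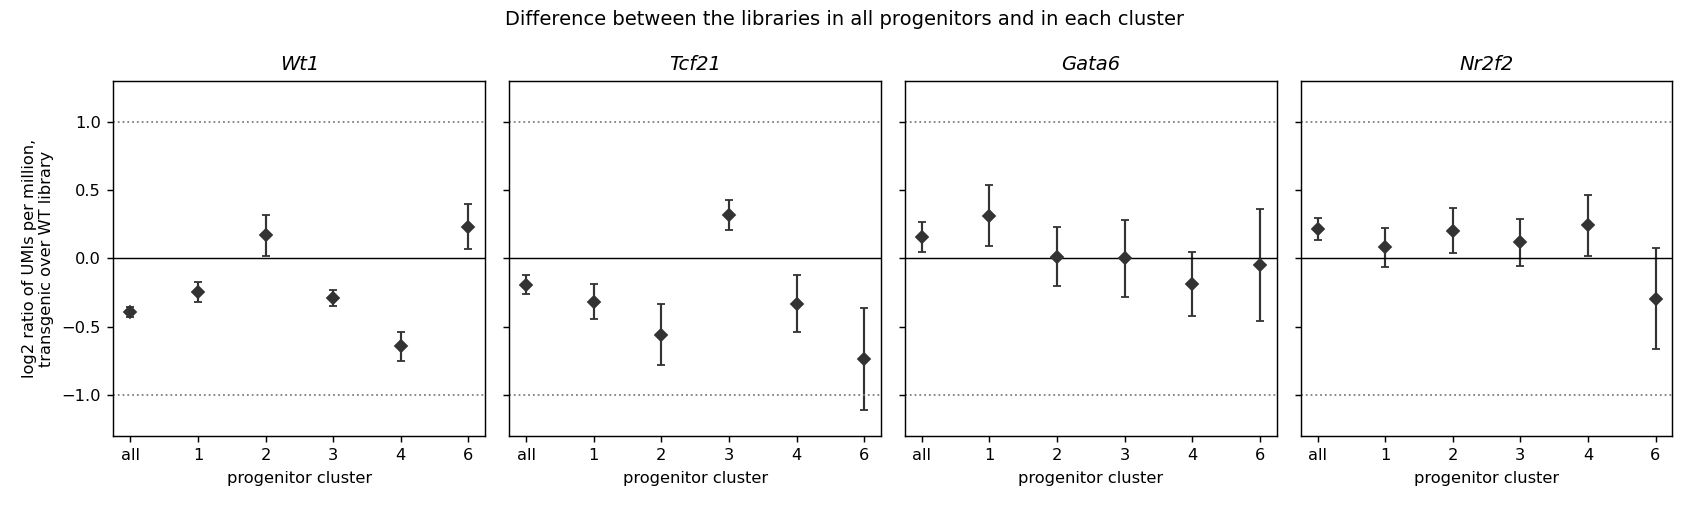
Log2 ratio of UPM, transgenic over WT library (vertical axis), of Wt1, Tcf21, Gata6 and Nr2f2 in all progenitors and in progenitor clusters 1, 2, 3, 4 and 6, with exact conditional binomial intervals. Dotted lines mark 2-fold; for Wt1 clusters 2 and 6 lie above 0 and clusters 1, 3 and 4 below.

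By the median over pairs, the factors were detected together about as often as the product of their shares gives. Wt1 and Tcf21 were found together more often than that in both libraries. In WT progenitors 685 cells held UMIs of both Wt1 and Tcf21, where the product of the shares gives 655.4, and in transgenic ones 675 against 630.6. Put another way, Tcf21 had a UMI in 76.4% and 66.6% of progenitors with Wt1 and in 60.1% and 49.1% of those without. For Wt1 and Gata6 the counts were 458 against 464.0 and 535 against 522.6, and for Wt1 and Nr2f2 656 against 657.0 and 723 against 724.3. Over all 21 pairs the median ratio of observed to product was 1.03 in WT and 1.05 in transgenic. The highest ratio among pairs of the 4 visceral marks was that of Tcf21 and Foxf1 in transgenic, with 191 cells against 159.4, while in WT it was 200 against 187.8. After thinning to 5000 UMIs the median ratios were 1.01 and 0.987, with Wt1 and Tcf21 in transgenic at 1.15 and Wt1 and Gata6 at 0.899 and 0.936. The pairs that include Tbx15 rest on 1 to 28 cells each and move most.

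All 3 of Wt1, Tcf21 and Gata6 had a UMI in 361 WT progenitors (32.1%) and 362 transgenic ones (26.8%), and exactly 2 of them in 500 and 573. None of the 3 was found in 46 (4.09%) and 97 (7.18%). Cells with none were shallower, at medians of 8915.5 and 11866 UMIs, than cells with all 3, at 25320 and 21846. The part of depth in these counts was not tested.

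**Figure D5:**
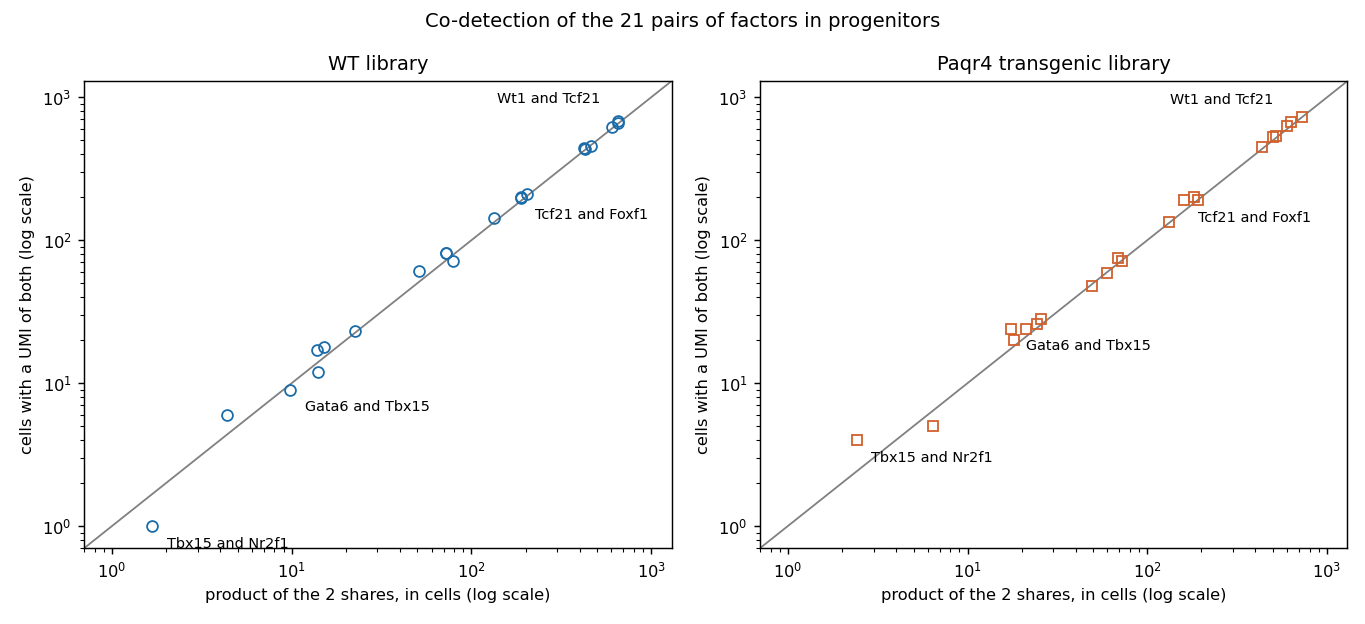
Progenitors with a UMI of both genes of a pair (vertical axis, cells, log scale) against the product of the shares of the 2 genes (horizontal axis, cells, log scale) for the 21 pairs of factors in each library. The line marks equality; Wt1 and Tcf21 lie just above it, at 685 and 675 cells.

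The genes most like each member were sought over 16 sums of a cluster in a library, each of 20 or more cells, among 10565 genes, by Pearson correlation of log2(UPM + 1). These sums share 2 libraries and the correlations are a description. Most like Wt1 was Wt1os (r = 0.986), the RNA that starts just before Wt1 and runs away from it on the opposite strand, without overlap. Wt1os stood at 112 and 82.8 UPM in progenitors, 344 and 240 UPM in mesothelial-like cells and 0 in blood endothelial-like cells. Next came Hk2, a hexokinase (0.974), and Adgrd1, an adhesion receptor (0.961). Most like Tcf21 were Mmp23 (0.959), Ifi205 (0.958) and the ferritin gene Fth1 (0.955).

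For Gata6 they were Pygo1 (0.978), the aminopeptidase gene Anpep (0.978) and Wdr35 (0.974). Foxf1 was followed by Pcna (0.941), Fas (0.930) and St3gal5 (0.929), Nr2f1 by Tspyl5 (0.941), Isoc2b (0.914) and Sfxn2 (0.913), and Nr2f2 by Sept11 (0.986) and Plekha5 (0.983). Tbx15 reached 10 UPM in none of the sums and was not compared. Fendrr, the non-coding neighbour of Foxf1 on the opposite strand, stood at 15.2 and 16.1 UPM in progenitors and 83.7 and 34.8 UPM in blood endothelial-like cells, higher in the same class as Foxf1.

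Relatives and partners of the members were followed as whole lists. Of 16 T-box genes measured, 12 stood under 1 UPM in both libraries and only Mga, a partner of Max, reached 10 UPM (114 and 118 UPM). All 5 other GATA genes stood under 1 UPM in progenitors, while Gata2 had 55.5 and 29.8 UPM in blood endothelial-like cells. Of 8 forkhead genes of the F, C, L, S and D groups, only Foxc1 reached 10 UPM (13.01 and 12.99 UPM), and Foxf2, the nearest relative of Foxf1, was at 2.07 and 2.41 UPM. Zfpm2, a cofactor of GATA factors and COUP-TFs, was at 1314 and 1485 UPM, and the corepressor Ncor1 at 235 and 254 UPM.

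Of the 16 relatives and partners of Tcf21, 10 reached 10 UPM: the E proteins Tcf4 (501 and 600 UPM) and Tcf12 (337 and 396 UPM) and the inhibitor Id3 (485 and 365 UPM) were the most abundant of these. At 10 UPM or more were 1 T-box, 1 forkhead, 7 COUP-TF and 10 Tcf21 partner genes, and no other GATA gene. None of these differed by 2-fold between the libraries, where 0.834% of all genes tested were higher and 0.789% lower. At such shares, lists this short would most often hold none. Among 14 cofactors and textbook targets of Wt1, 10 reached 10 UPM, with Egr1, which binds a similar motif, at 3305 and 3256 UPM, Basp1 at 130 and 132 UPM and Wtap at 39.7 and 40.6 UPM. Of these 10, only Aldh1a2 differed by 2-fold (0.834% of all genes were that much higher), 60.9 against 136 UPM (log2 1.16, from 1.07 to 1.25), the opposite direction to Wt1 itself.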

How the data were processed

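Values in the deposited files are counts: whole numbers of UMIs, not normalised, for all barcodes, per the file headers. Reads were processed with Cell Ranger on mm10, per the submitters' processing notes, which give version 7.0.0, while the file headers give 4. The 32286 features were summed to 32246 symbols. Cells were filtered as stated, and Scrublet doublets (3 WT, 13 transgenic, 0.226% and 0.852%) were removed. Counts scaled to 10000 per cell were log-transformed, and 2000 variable genes, 30 components and 15 neighbours gave Leiden clusters at resolution 0.5, seed 1 (scanpy 1.11.5, leidenalg 0.10.2, igraph 0.11.9, Python 3.11.15, pandas 2.3.3, numpy 2.4.6, matplotlib 3.10.9, scikit-learn 1.9.0, scipy 1.17.1). Genes were not z-scaled, a choice made after clusters had been seen.

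Clusters were named from 15 marker lists that hold no member. A marker was on at 25% or more of its highest cluster level and at 20 UPM or more, and a name needed at least 3. An unnamed cluster of 34 and 30 cells with progenitor markers but led by haemoglobin genes was left out of the progenitors. Levels are UMIs summed over a class per 1000000 of its total. Intervals are exact Poisson (levels), Clopper-Pearson (shares) and exact conditional binomial (ratios). A gene at 0 was set to 3 UMIs for a ratio, which is then a bound. Ratios were counted at 2-fold among genes at 10 UPM or more in either group. The code was tested on simulated counts. Named genes are the members, the 3 genes most like each (some genes are not reported here), and from each of 12 lists up to 4 with the highest level or largest ratio; the other genes named were chosen after their values were seen. The members and lists were chosen with earlier results of these data known. Alternatives were the doublets, the cell filter, resolution, clustering genes, marker gates, the denominator, cluster weights and thinning.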

Additional observations from a re-analysis of the deposited data

Results flagged for a closer look

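Wt1 and Tcf21 differed between the libraries in opposite directions in different progenitor clusters, with counting intervals on either side of 0; the difference between clusters was not tested, since each genotype has 1 library. For Wt1 the log2 ratio, transgenic over WT, was 0.168 in cluster 2 and 0.231 in cluster 6, but −0.243 in cluster 1, −0.293 in cluster 3 and −0.643 in the Dpp4-like cluster 4. For Tcf21 it was 0.321 in cluster 3, but −0.318 in cluster 1, −0.558 in cluster 2, −0.331 in cluster 4 and −0.737 in cluster 6. In cluster 3, where both factors are highest, Wt1 was thus lower and Tcf21 higher in the transgenic library.

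Tbx15 appeared in data outside the main measurement, in transgenic barcodes of 50 or fewer UMIs, at 11.1 UPM from 22 UMIs, against 0.301 UPM from 1 UMI in the WT library. The progenitors of the transgenic library held 2.22 UPM. Hoxc8 was also higher in the transgenic free RNA, at 18.2 UPM against 5.12 UPM in WT. Other genes of the subcutaneous list had a few UMIs there and 0 in the WT free RNA: En1 had 3, Emx2 3 and Shox2 2. The En1 level of 1.52 UPM (0.313 to 4.43) lay above that of the transgenic progenitors, 0.0382 UPM.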

How the results depend on the processing

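No paired analysis was possible because each genotype has 1 library, and no library could be left out. Over all alternatives, 271 levels stayed within the counting interval of the value given and 9 did not. For ratios between libraries these counts were 82 and 9, and for pairs of genes 107 and 19, the latter all from thinning. With each progenitor cluster weighted equally, the log2 ratio between libraries turned to −0.039 for Gata6 and −0.071 for Nr2f2, and moved to −0.75 for Nr2f1 and −0.15 for Wt1. Without cluster 8, whose 10 transgenic cells held 4 Gata6, 18 Nr2f2 and 1 Nr2f1 UMIs, the equally weighted ratios were 0.0041 (Gata6), 0.062 (Nr2f2), 0.13 (Nr2f1) and −0.174 (Wt1), an alternative added after the data were seen. Thinned to 5000 UMIs it was 0.033 for Gata6 and −0.34 for Wt1. In blood endothelial-like cells with doublets kept, Wt1 was at 8.17 and 20.3 UPM in WT and transgenic, Tcf21 at 4.08 UPM in WT and Gata6 at 15.9 UPM in transgenic. By marker gates, Gata6 was at 14.9 and Wt1 at 10.4 UPM in transgenic endothelial cells, Nr2f2 at 82.8 and 92.3 UPM in WT and transgenic ones, and Tcf21 at 128 UPM in WT progenitors. These Nr2f2 levels were near those of the clustered progenitors, 93.4 and 109 UPM.

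Shares of progenitors with a UMI fall with depth by construction. At 5000 UMIs they were, for WT and transgenic, 62.3% and 56.2% (Wt1), 34.5% and 31.7% (Tcf21), 22.1% and 23.5% (Gata6), 7.09% and 5.75% (Foxf1), 0.636% and 0.767% (Tbx15), 2.27% and 2.30% (Nr2f1) and 34.1% and 37.9% (Nr2f2). At 3000 UMIs they were, in the same order, 50.9% and 45.3%, 27.0% and 22.5%, 12.5% and 15.4%, 4.04% and 3.24%, 0.449% and 0.678%, 1.44% and 1.81%, and 23.9% and 27.4%. The median pair ratio in transgenic was 0.987 after thinning. At resolution 0.3 there was no mesothelial-like cluster and thus no value.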

Other observations

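Values of progenitor-marker cells left out of the progenitors, since haemoglobin genes led their cluster, were as follows. In this cluster of 34 WT and 30 transgenic cells Wt1 stood at 244 and 330 UPM, Tcf21 at 88.7 and 89.3 UPM, Gata6 at 21.9 and 43.95 UPM and Nr2f2 at 122 and 106 UPM. Haemoglobin transcripts took 22.1% of the UMIs of these cells.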
